A study of Mus musculus with 6 samples.

Results

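Megakaryocyte and platelet genes were followed in fetal livers of mouse embryos at embryonic day 11.5. The set holds 37 named genes that encode platelet receptors, granule proteins, signalling proteins and cytoskeletal proteins. Of these, 34 were matched by their gene names among the 23279 genes tested, and Gp1ba, Serpine2 and Ptgs1 were not analysed here. Total RNA of whole livers was hybridised to Affymetrix arrays, 3 of livers labelled knockout and 3 of livers labelled heterozygous, which served as controls. Embryos came from a cross of Stab2-Cretg/wt;Gata4fl/wt with Gata4fl/fl mice, with the floxed Gata4 alleles from the line B6;129-Gata4tm1.1Sad/J. Stab2 is a gene of sinusoidal endothelium, and in this cross it drives Cre. The livers labelled knockout are Stab2-Cre;Gata4fl/fl, and the titles name the transgene in the heterozygous controls too. How many embryos an array represents was not stated in the labels.

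Megakaryocytes are the large blood cells that release platelets, and the liver of the embryo is one of the places where they form. Their genes are switched on by a shared set of transcription factors, among them GATA1 with its partner FOG1, FLI1 of the ETS family, and NF-E2 at late stages. Platelets adhere through von Willebrand factor and collagen receptors, respond to ADP, thrombin and thromboxane, and release the contents of alpha and dense granules.

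In livers labelled knockout 11 of the 34 megakaryocyte and platelet genes fell, 0 rose and 23 did not pass. The test was limma's moderated test with an adjusted p under 0.05 over all genes. Across all 23279 genes 2.77% were lower and 3.59% were higher by the same test. The genes that fell were the receptors Gp5, Gp6, Treml1, F2rl2 and P2ry12, the secreted proteins Vwf and Thbs1, the eicosanoid enzymes Alox12 and Tbxas1, the signalling gene Rasgrp2 and the tubulin gene Tubb1, with falls between 1.72-fold and 2.26-fold. The median log2 difference, labelled knockout minus control, was -0.69 over the 34 genes and -0.01 over all genes. The difference was negative for 32 of the 34, the exceptions being Clec1b and Dnm3. At an unadjusted p under 0.05, 28 of the 34 were lower and 0 were higher, compared with 11.5% and 11.1% of all genes. In 24 of the 34 genes every liver labelled knockout lay below every control liver, as was so for 14.3% of all genes. In RNA of a whole organ, fewer cells of a type and less RNA per cell cannot be told apart.

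The labels and the sexes of the embryos bear on every one of these differences. Gata4 read 10.38, 10.26 and 10.64 in livers labelled knockout, against 9.90, 9.96 and 9.87 in control livers (log2 difference 0.51, SE 0.12, limma adjusted p = 0.0409), so its level was not lower under the knockout label. The positions of its probes relative to the deleted part were not stated in the labels, so Gata4 tests nothing about them, and each direction below rests on the labels as written. By Xist and the Y-linked gene Uty, all 3 livers labelled knockout and control replicate 2 were female, and control replicates 1 and 3 were male. With a sex term in the fit, or with the 4 female arrays alone, 0 of the 34 genes passed limma's test, and 3 and 0 of all genes did. At an unadjusted p under 0.05 these fits had 12 and 7 of the 34 genes lower and 1 higher, Dnm3, compared with 6.95% and 5.98% of all genes lower and 7.04% and 5.98% higher. In both fits the difference is the mean of the livers labelled knockout minus control replicate 2, the only female control. Against control replicate 2 alone the median difference of the 34 genes was -0.57, and all 3 livers labelled knockout lay below it in 27 of the 34, compared with 31.0% of all genes. The means of the male controls lay above control replicate 2 in 27 of the 34 genes too, with a median difference of 0.22, against 0.00 over all genes. The part of embryo sex in the result was not tested further.

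**Figure D1:**
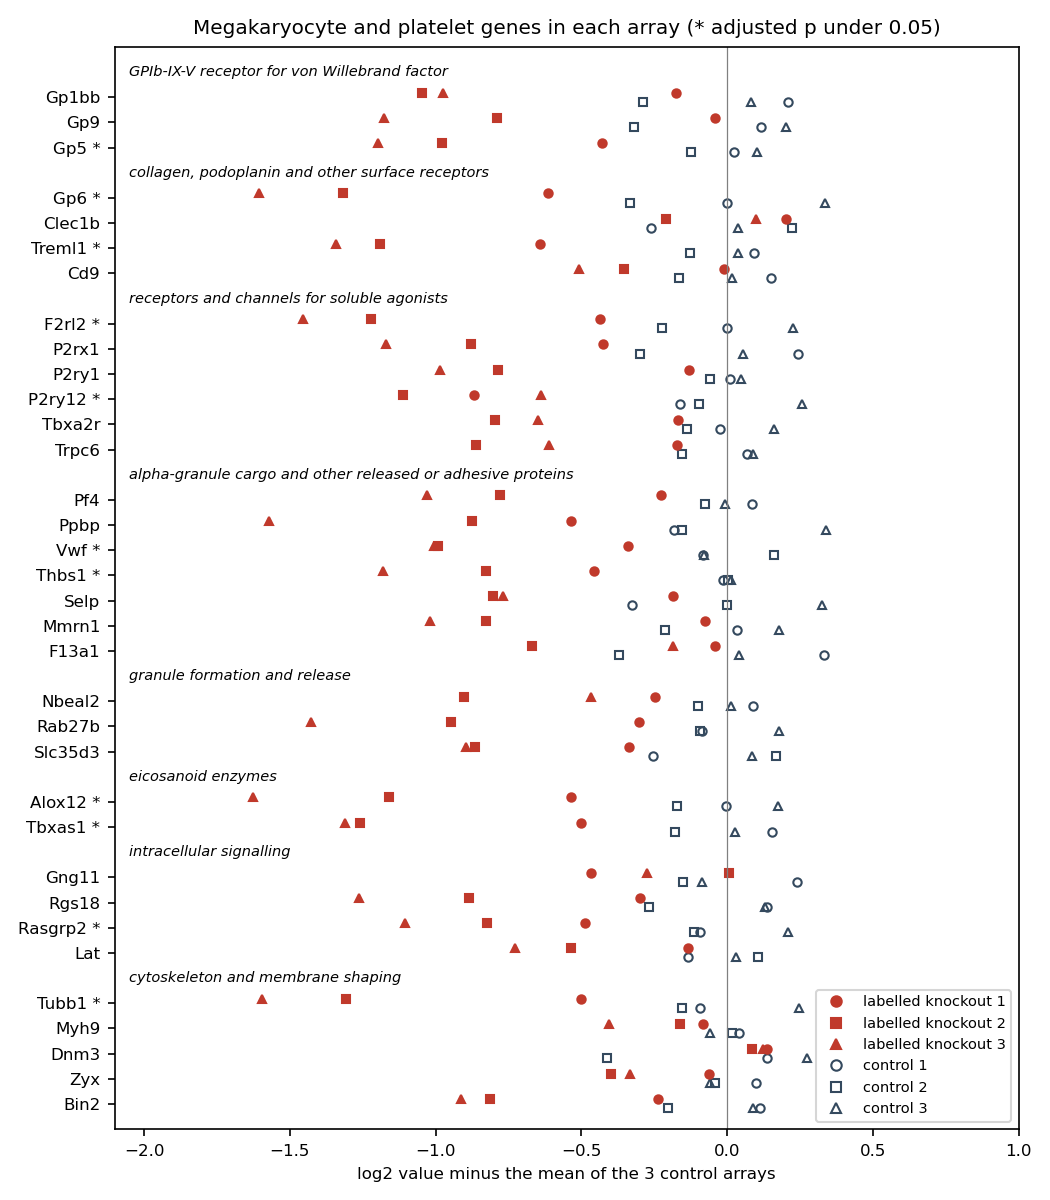
Each point is the log2 value of a gene in 1 array minus the mean of the 3 control arrays, with genes grouped by role, labelled knockout arrays as filled symbols above and control arrays as open symbols below. In 24 of the 34 genes the 3 filled symbols lie left of all open ones, and the circle of labelled knockout replicate 1 is the highest of its group in 32.

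Sequences upstream of the genes were read because megakaryocyte promoters are known for GATA and ETS motifs. The 250 bases before the annotated start were taken from RefSeq (GRCm38.p6), where 28 of the 34 genes had a window and 3 of these had a pair of windows. Windows for Vwf, Thbs1, Rab27b, Gng11, Rgs18 and Bin2 were not used here. The motifs searched, on both strands, were AGATAA and TGATAA for GATA factors, CAGGAA and CCGGAA for ETS factors, and TGAGTCA and TGACTCA for NF-E2. No match of one kind overlapped a match of another kind in these windows. A GATA motif stood in 6 of the 31 windows (19.4%), against 16.6% of all 32851 windows, and an ETS motif in 12 of 31 (38.7%), against 35.1% of all. An NF-E2 motif stood in 2 of 31 windows (6.45%), those of F2rl2 and Zyx, against 4.46% of all. These shares lie near those of all windows. Shown first are the genes that fell and hold a GATA motif, Gp5, Gp6 and F2rl2, then Treml1 and Tubb1, which fell and hold an ETS motif, as 1 window of Rasgrp2 does, and last Clec1b. Of the 6 genes with a GATA motif, 3 fell and 3 did not pass, namely Clec1b, P2rx1 and Mmrn1, and Clec1b is shown since its difference was not negative. Capitals mark the motifs, and each sequence runs 5′ to 3′ toward the gene.
Gp5, chr16:30310782-30311031, minus strand: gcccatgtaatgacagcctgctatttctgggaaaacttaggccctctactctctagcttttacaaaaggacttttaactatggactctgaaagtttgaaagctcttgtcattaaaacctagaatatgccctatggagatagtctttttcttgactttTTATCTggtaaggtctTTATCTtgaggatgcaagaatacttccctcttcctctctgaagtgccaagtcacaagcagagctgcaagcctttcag
Gp6, chr7:4397745-4397994, minus strand: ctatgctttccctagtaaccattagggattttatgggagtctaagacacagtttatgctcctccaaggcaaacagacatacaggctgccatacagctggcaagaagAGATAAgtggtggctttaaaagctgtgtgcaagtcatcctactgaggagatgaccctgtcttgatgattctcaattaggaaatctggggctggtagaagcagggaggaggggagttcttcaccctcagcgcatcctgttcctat
F2rl2, chr13:95696670-95696919, plus strand: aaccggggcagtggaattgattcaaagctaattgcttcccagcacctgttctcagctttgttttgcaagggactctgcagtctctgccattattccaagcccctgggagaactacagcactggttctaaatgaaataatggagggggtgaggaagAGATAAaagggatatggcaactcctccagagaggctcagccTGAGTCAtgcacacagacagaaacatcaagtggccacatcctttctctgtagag
Treml1, chr17:48359666-48359915, plus strand: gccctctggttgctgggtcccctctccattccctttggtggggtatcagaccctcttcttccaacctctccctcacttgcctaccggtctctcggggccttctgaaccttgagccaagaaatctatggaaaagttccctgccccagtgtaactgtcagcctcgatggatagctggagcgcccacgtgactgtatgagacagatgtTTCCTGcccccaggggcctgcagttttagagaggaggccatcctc
Tubb1, chr2:174450345-174450594, plus strand: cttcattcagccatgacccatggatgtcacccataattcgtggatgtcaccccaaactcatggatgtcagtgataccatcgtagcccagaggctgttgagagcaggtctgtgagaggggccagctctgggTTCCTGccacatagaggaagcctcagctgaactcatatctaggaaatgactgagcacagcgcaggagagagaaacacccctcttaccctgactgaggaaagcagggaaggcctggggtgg
Clec1b, chr6:129397047-129397296, plus strand: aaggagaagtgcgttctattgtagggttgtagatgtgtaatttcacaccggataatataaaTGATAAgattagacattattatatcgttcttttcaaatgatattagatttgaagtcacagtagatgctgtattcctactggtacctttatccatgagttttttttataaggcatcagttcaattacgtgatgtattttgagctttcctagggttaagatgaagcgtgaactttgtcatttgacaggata
The Gp5 window held GATA motifs starting 93 and 77 bases before the gene's start, the Gp6 window one at 144 bases and the F2rl2 window one at 95 bases, with its NF-E2 motif at 54 bases. In Clec1b the GATA motif began 189 bases before the start. A match of letters is a description and does not show that a factor binds there.

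Among the adhesion receptors of the platelet surface, Gp5, Gp6 and Treml1 fell. Glycoprotein Ib-IX-V is the receptor that tethers platelets to von Willebrand factor. Its subunit gene Gp5 read 8.33, 7.78 and 7.56 in livers labelled knockout 1, 2 and 3, against 8.78, 8.64 and 8.86 in control livers 1, 2 and 3. All 3 livers labelled knockout lay below the controls, and the difference was -0.87 (SE 0.19, limma adjusted p = 0.0366). The other measured subunits had differences of similar size that did not pass. Gp9 read 11.30, 10.55 and 10.16 under the knockout label, against 11.45, 11.02 and 11.54 in controls (-0.67, SE 0.27, adjusted p = 0.194), and Gp1bb read 8.64, 7.76 and 7.84 under the knockout label, against 9.02, 8.52 and 8.89 in controls (-0.73, SE 0.24, adjusted p = 0.114). In both genes labelled knockout replicate 1 lay within the range of the controls and the other two lay below it.

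Gp6, the platelet's signalling receptor for collagen, had the largest difference of the 34 genes. It read 6.66, 5.95 and 5.67 in livers labelled knockout, against 7.27, 6.94 and 7.61 in control livers, a 2.26-fold fall (log2 difference -1.18, SE 0.26, limma adjusted p = 0.0401). Treml1 encodes TLT-1, a receptor of alpha-granule membranes that reaches the surface on activation. Its values were 7.67, 7.12 and 6.97 in livers labelled knockout, against 8.41, 8.19 and 8.35 in controls, without overlap (-1.06, SE 0.18, adjusted p = 0.0197), and its adjusted p was the smallest of the set. Clec1b encodes CLEC-2, the podoplanin receptor of platelets, which mouse liver sinusoidal endothelium also makes. It read 8.17, 7.76 and 8.07 under the knockout label and 7.71, 8.20 and 8.01 in controls. The groups overlapped, and the difference was 0.03 with a 95% interval from -0.33 to 0.39 (adjusted p = 0.944). The tetraspanin Cd9, which many cell types express, did not pass either (-0.29, SE 0.15, adjusted p = 0.296).

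Receptors and channels for soluble agonists were lower without overlap of the groups in 6 of 6 genes, compared with 14.3% of all genes. Of these 6 genes 2, F2rl2 and P2ry12, passed the test. F2rl2 encodes PAR3, which on mouse platelets presents thrombin to PAR4. It read 10.18, 9.39 and 9.16 in livers labelled knockout, against 10.61, 10.39 and 10.84 in control livers (-1.04, SE 0.25, limma adjusted p = 0.0491). P2ry12, the ADP receptor blocked by clopidogrel, read 4.74, 4.49 and 4.96 under the knockout label, against 5.44, 5.51 and 5.86 in controls (-0.87, SE 0.16, adjusted p = 0.0239). It lies in the dimmest 50% of genes, and no call of presence over background was used, and it is the member in this group in which labelled knockout replicate 1 was not the highest of the 3. The other ADP receptor, P2ry1, read 7.83, 7.18 and 6.98 in livers labelled knockout, against 7.98, 7.91 and 8.01 in controls (-0.63, SE 0.20, adjusted p = 0.106). The ATP-gated channel P2rx1 read 7.44, 6.99 and 6.69 under the knockout label, against 8.11, 7.57 and 7.92 in controls (-0.82, SE 0.21, adjusted p = 0.0550). Differences of the thromboxane receptor Tbxa2r (-0.54, adjusted p = 0.103) and of Trpc6, a cation channel opened by diacylglycerol (-0.55, adjusted p = 0.106), were smaller and did not pass.

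Of 7 measured genes for granule cargo and other released or adhesive proteins, Vwf and Thbs1 fell. Von Willebrand factor, stored in alpha granules and also made by endothelium, had Vwf values of 7.53, 6.88 and 6.86 in livers labelled knockout, against 7.79, 8.03 and 7.79 in control livers (-0.78, SE 0.18, limma adjusted p = 0.0469). Thrombospondin 1, an adhesive protein of alpha granules that mesenchyme and endothelium also make, had Thbs1 values of 10.75, 10.38 and 10.03 in livers labelled knockout, against 11.19, 11.21 and 11.22 in controls (-0.82, SE 0.17, adjusted p = 0.0326). Under the knockout label the SD of Thbs1 was 0.36, against 0.01 in controls (n = 3 each), the smallest control SD of the 34 genes. The chemokine genes Pf4 and Ppbp, defining products of the lineage that lie side by side in a chemokine cluster on chromosome 5, were each lower without overlap and did not pass. Pf4 read 9.93, 9.37 and 9.12 in livers labelled knockout, against 10.24, 10.07 and 10.14 in controls (-0.68, SE 0.19, adjusted p = 0.0747). Ppbp read 11.48, 11.14 and 10.45 under the knockout label, against 11.83, 11.86 and 12.36 in controls (-0.99, SE 0.26, adjusted p = 0.0623). The groups overlapped for P-selectin Selp (-0.59, adjusted p = 0.146), for Mmrn1, the factor V carrier multimerin (-0.64, adjusted p = 0.150), and for F13a1, the clotting transglutaminase that macrophages also make (-0.30, adjusted p = 0.479). The F13a1 difference turned to 0.073 against control replicate 2 alone.

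Both measured enzymes that turn arachidonic acid into platelet mediators fell. Alox12, the platelet-type lipoxygenase, read 8.79, 8.17 and 7.70 in livers labelled knockout, against 9.33, 9.16 and 9.51 in control livers (-1.11, SE 0.25, limma adjusted p = 0.0404). Tbxas1, thromboxane synthase, which macrophages also express, read 6.64, 5.88 and 5.83 under the knockout label, against 7.29, 6.96 and 7.17 in controls (-1.02, SE 0.21, adjusted p = 0.0339). In each gene all livers labelled knockout lay below all controls. The 3 genes of granule formation and release were lower with no overlap between groups, compared with 14.3% of all genes, and none passed. Rab27b, a small GTPase of dense granule secretion, read 8.24, 7.60 and 7.11 under the knockout label, against 8.46, 8.45 and 8.72 in controls (-0.89, SE 0.25, adjusted p = 0.0768). Slc35d3, needed in mice for dense granules, differed by -0.70 (adjusted p = 0.0569), and Nbeal2, whose loss causes gray platelet syndrome, by -0.54 (adjusted p = 0.0944).

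Among signalling genes Rasgrp2 fell, and among cytoskeletal genes Tubb1 did. Rasgrp2 encodes CalDAG-GEFI, which activates Rap1 upstream of platelet integrins. It read 8.03, 7.69 and 7.41 in livers labelled knockout, against 8.42, 8.40 and 8.72 in control livers (-0.81, SE 0.17, limma adjusted p = 0.0339). Rgs18, a brake on G protein signalling in platelets, read 9.12, 8.53 and 8.15 under the knockout label, against 9.55, 9.14 and 9.54 in controls (-0.82, SE 0.23, adjusted p = 0.0808). The adaptor Lat, which T cells and mast cells share (-0.47, adjusted p = 0.124), and the G protein subunit gene Gng11 (-0.25, adjusted p = 0.411) did not pass. Tubb1, the beta-tubulin of the platelet marginal band, read 9.28, 8.47 and 8.19 under the knockout label, against 9.69, 9.62 and 10.03 in controls, a 2.20-fold fall (-1.13, SE 0.26, adjusted p = 0.0431). Bin2, a membrane-bending protein of blood cells, was lower without overlap and did not pass (-0.65, SE 0.18, adjusted p = 0.0768). Differences were smaller for 2 widely expressed genes, the non-muscle myosin Myh9 (-0.22, adjusted p = 0.297) and the adhesion protein Zyx (-0.27, adjusted p = 0.220). Dynamin gene Dnm3, also in the dimmest 50% of genes, read 4.62, 4.57 and 4.61 in livers labelled knockout, against 4.62, 4.07 and 4.76 in controls, and the groups overlapped (0.11, 95% interval -0.27 to 0.50, adjusted p = 0.773).

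**Figure D2:**
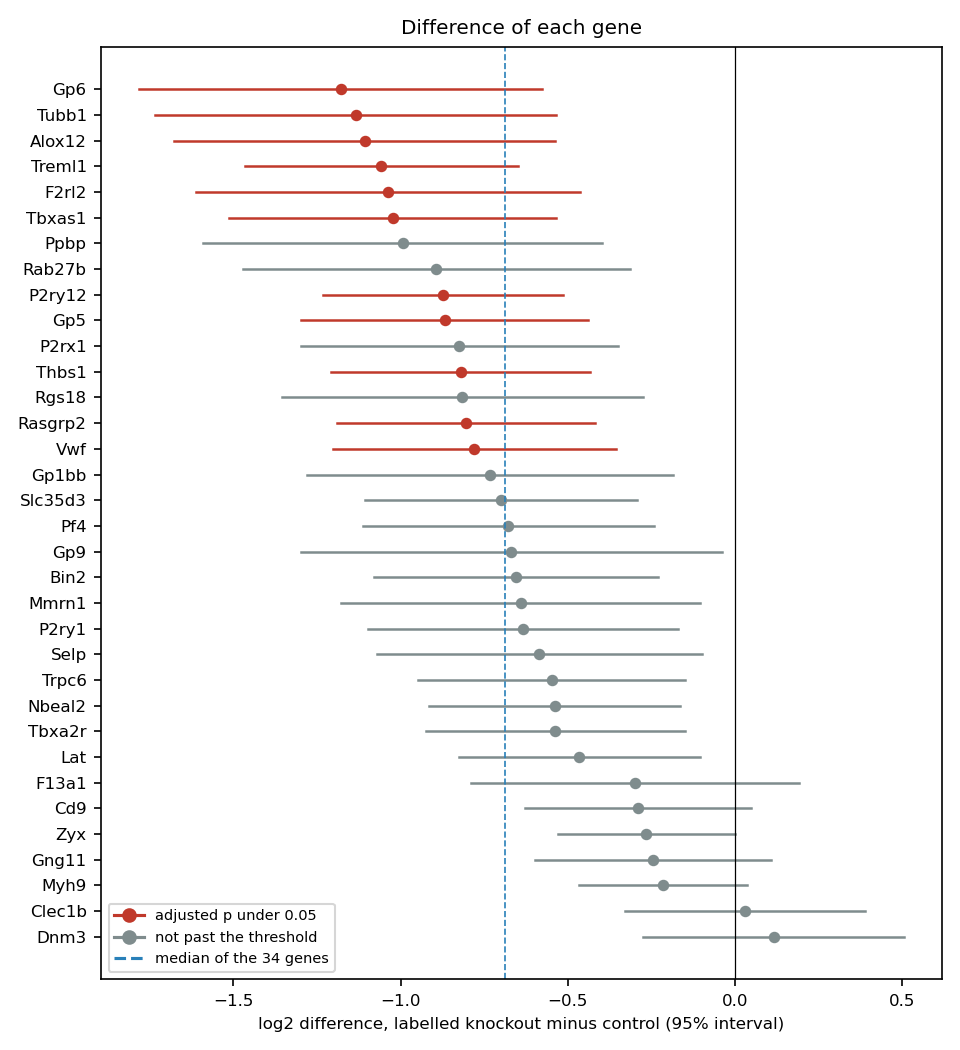
Log2 difference of each gene, labelled knockout minus control, with its 95% interval from the limma fit over 6 arrays, ordered by size, with genes past an adjusted p of 0.05 in red and the median of the 34 genes as a dashed line. Gp6 is at the top with -1.18, and Clec1b (0.03) and Dnm3 (0.11) lie right of 0.

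The 34 genes were not lowered equally in the 3 livers labelled knockout. Relative to the control mean, their median log2 value was -0.273 in labelled knockout replicate 1, -0.845 in replicate 2 and -0.996 in replicate 3, against 0.03, -0.15 and 0.09 in control replicates 1, 2 and 3. Replicate 1 was the highest of the livers labelled knockout for 32 of the 34 genes, compared with 32.1% of all genes. It lay below every control in 25 of the 34, and replicates 2 and 3 did so in 31 each, compared with 30.8%, 34.4% and 33.4% of all genes for replicates 1, 2 and 3. Among controls replicate 2 was the lowest for 24 of the 34 genes, compared with 33.8% of all genes. The SD was larger under the knockout label than in controls for 31 of the 34 genes, with a median of 0.37, against 0.18 in controls, as it was for 57.6% of all genes. Since the genes of a lineage share the same 6 livers, these counts are not independent observations.

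Leaving out single arrays moved the number of genes that passed over a wide range. Without labelled knockout replicate 1, 26 of the 34 genes were lower by the same test, with a median difference of -0.91. The count was 2 without labelled knockout replicate 2 (Treml1 and P2ry12), 1 without replicate 3 and 1 without control replicate 1 (P2ry12 in both), and 0 without control replicate 2 or control replicate 3, where limma had 26 and 24 lower and 0 higher at an unadjusted p under 0.05, compared with 9.32% and 8.69% of all genes lower. The medians in those 5 fits lay between -0.58 and -0.75. Thus P2ry12 passed in 4 of the 6 fits and Treml1 in 2, and the other 9 genes that fell passed in 1, the fit without labelled knockout replicate 1. In all 6 fits the difference stayed negative for each of the 11 genes. Without control replicate 2 the livers labelled knockout were female and the controls male, so sex and label cannot be told apart there. Over all genes the lower calls were 610, 301 and 87 without labelled knockout replicates 1, 2 and 3, against 644 with all arrays. Without control replicates 1, 2 and 3 they were 255, 155 and 16. The fits have fewer arrays, and the part of this in the counts was not tested.

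**Figure D3:**
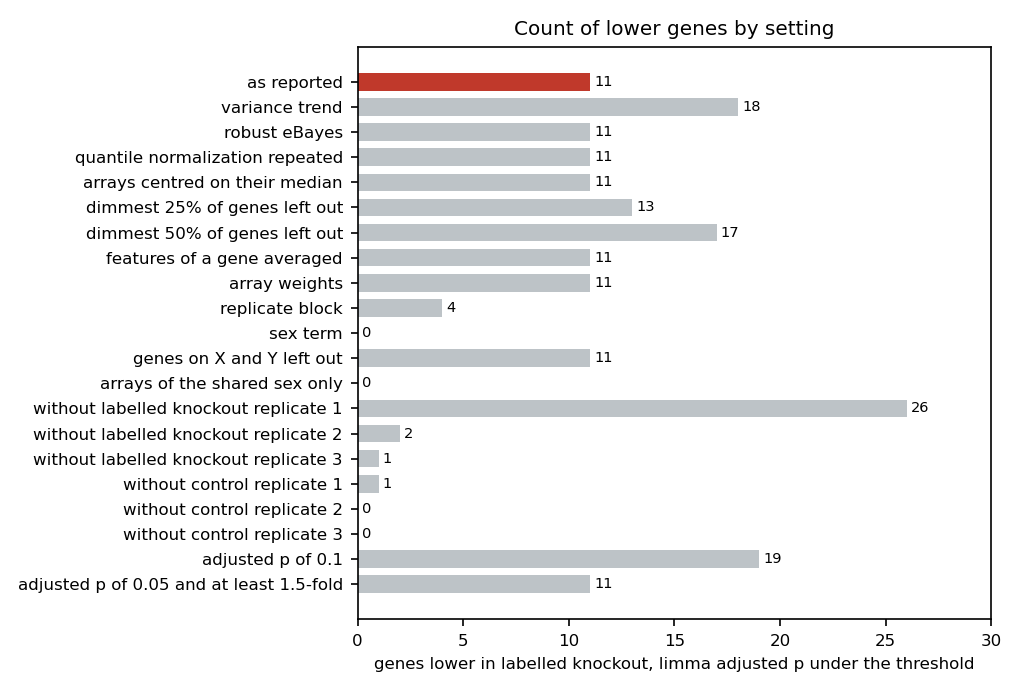
Bars give how many of the 34 genes were lower in livers labelled knockout in the fit as reported (11, red) and under each other setting (grey). The count runs from 0 with a sex term, the shared sex only, or without control replicate 2 or 3, to 26 without labelled knockout replicate 1.

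Other genes of the lineage, listed apart from the 34, moved unevenly. Of 16 transcription factors of megakaryocytes 4 fell and 0 rose, compared with 2.77% and 3.59% of all genes, with a median difference of -0.24. The factors that fell are shared with red cells or progenitors, namely Tal1 (-0.98, SE 0.10, limma adjusted p = 0.0074), the NF-E2 subunit gene Nfe2 (-0.89, SE 0.11, adjusted p = 0.0106), Lyl1 (-0.67, adjusted p = 0.0357) and Lmo2 (-0.61, adjusted p = 0.0439). Gata1 read 10.32, 9.79 and 9.91 in livers labelled knockout, against 10.49, 10.58 and 10.81 in controls, and missed the threshold (-0.63, SE 0.15, adjusted p = 0.0537), as did Gfi1b (-0.69, adjusted p = 0.0727). Fli1, which endothelium also expresses, read 10.54, 10.08 and 10.03 under the knockout label, against 10.52, 10.26 and 10.41 in controls, with overlap (-0.18, SE 0.15, adjusted p = 0.562). Runx1 overlapped too (-0.33, adjusted p = 0.339).

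Of 9 measured genes of the thrombopoietin axis and the platelet integrins none passed. With limma's unadjusted p under 0.05, 4 were lower and 0 higher, compared with 11.5% and 11.1% of all genes. Both chains of the fibrinogen receptor were lower without overlap. Itga2b read 8.75, 8.33 and 7.79 in livers labelled knockout, against 9.16, 8.84 and 9.15 in controls (-0.76, SE 0.22, limma adjusted p = 0.0885). Itgb3 read 10.31, 9.61 and 9.26 under the knockout label, against 10.53, 10.56 and 10.71 in controls (-0.87, SE 0.24, adjusted p = 0.0698). The kinase gene Jak2 (-0.40, adjusted p = 0.0735) and Stat5a (-0.44, adjusted p = 0.219) did not pass. In these 9 genes labelled knockout replicate 1 was the highest of its group in 8.

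Platelet receptor signalling genes had a median difference near that of the 34 genes, -0.68. Of these 21 genes 7 fell and 0 rose, compared with 2.77% and 3.59% of all genes. The 4 with the smallest p were the thrombin receptor gene F2rl3 for PAR4 (-0.66, SE 0.11, limma adjusted p = 0.0174), Btk (-0.96, adjusted p = 0.0207), Vav1 (-0.82, adjusted p = 0.0223) and Syk (-0.94, adjusted p = 0.0281), kinases and an exchange factor that other blood cells share. Of 22 genes of granule biogenesis and secretion 4 fell and 0 rose (median -0.24), the vesicle fusion genes Vamp8 (-0.79, adjusted p = 0.0151) and Stx11 (-0.71, adjusted p = 0.0445), the GTPase gene Rab27a (-0.86, adjusted p = 0.0158) and the granule proteoglycan gene Srgn (-0.71, adjusted p = 0.0418). Of 18 cytoskeletal and proplatelet genes 4 fell and 0 rose (median -0.31). They were Cavin2 (-0.68, adjusted p = 0.0264), the tubulin gene Tuba8 (-0.90, adjusted p = 0.0290), Was (-0.67, adjusted p = 0.0418) and the formin gene Diaph1 (-0.44, adjusted p = 0.0474). The genes of these lists are not limited to megakaryocytes, and which cells their falls come from was not tested.

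Several of the 34 genes are also expressed outside megakaryocytes, so markers of other cell types were read beside them. The genes named beside each cell type are examples and not a full list. Which cells the RNA of any of the 34, P2ry12 and Pf4 included, came from was not tested. Macrophage markers, which bear on Tbxas1, F13a1 and Bin2, fell in 10 of 13 cases, compared with 2.77% of all genes. Their per-array medians were -0.96, -1.18 and -1.05 in livers labelled knockout and 0.15, -0.11 and 0.02 in controls. Mrc1 (-1.06), Mpeg1 (-1.56) and Marco (-1.12) had limma adjusted p-values of 0.0074, 0.0074 and 0.00813. Erythroid markers fell in 5 of 11 cases, with per-array medians of -0.67, -0.64 and -0.80 in livers labelled knockout, against -0.22, -0.03 and 0.29 in controls, among them Epor (-0.83), Klf1 (-0.80) and Sptb (-0.84). In neither list did labelled knockout replicate 1 stand as near to the controls as it did for the 34 genes, a contrast that was not tested. Mast cell markers, which bear on Lat, fell in 2 of 9 cases, Cpa3 (-1.76, adjusted p = 0.0132) and Hdc (-1.30, adjusted p = 0.0280), and their median was -0.07. Of 7 T cell markers none passed (median -0.11). With limma's unadjusted p under 0.05, 1 was lower and 0 higher, compared with 11.5% and 11.1% of all genes. Cd3g read at most 3.82 in any array on a scale that begins at 2.55.

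Endothelial and mesenchymal markers were on balance higher in livers labelled knockout. Of 12 endothelial markers 4 rose and 1 fell (median 0.38), compared with 3.59% and 2.77% of all genes. These markers bear on Vwf, Thbs1, Selp, Mmrn1 and Clec1b. Per array their median was 0.36, 0.26 and 0.56 in livers labelled knockout and 0.08, 0.01 and -0.08 in controls. Pecam1 (0.63, limma adjusted p = 0.0140) and Emcn (1.00, adjusted p = 0.0151) rose, and Stab2 of sinusoidal endothelium fell (-1.30, adjusted p = 0.0161). Of 10 mesenchymal markers, which bear on Thbs1, Zyx and Myh9, 4 rose and 0 fell (median 0.54), among them Hand2 (0.71), Col1a2 (0.70) and Pdgfrb (0.56). None of 10 hepatoblast markers passed (median 0.13). With limma's unadjusted p under 0.05, 0 were lower and 4 higher, compared with 11.5% and 11.1% of all genes. Hnf4a, a factor that defines liver epithelium, read between 10.17 and 10.60 in livers labelled knockout and between 10.04 and 10.12 in controls. The part of these cell types in the differences of the 34 genes was not tested.

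**Figure D4:**
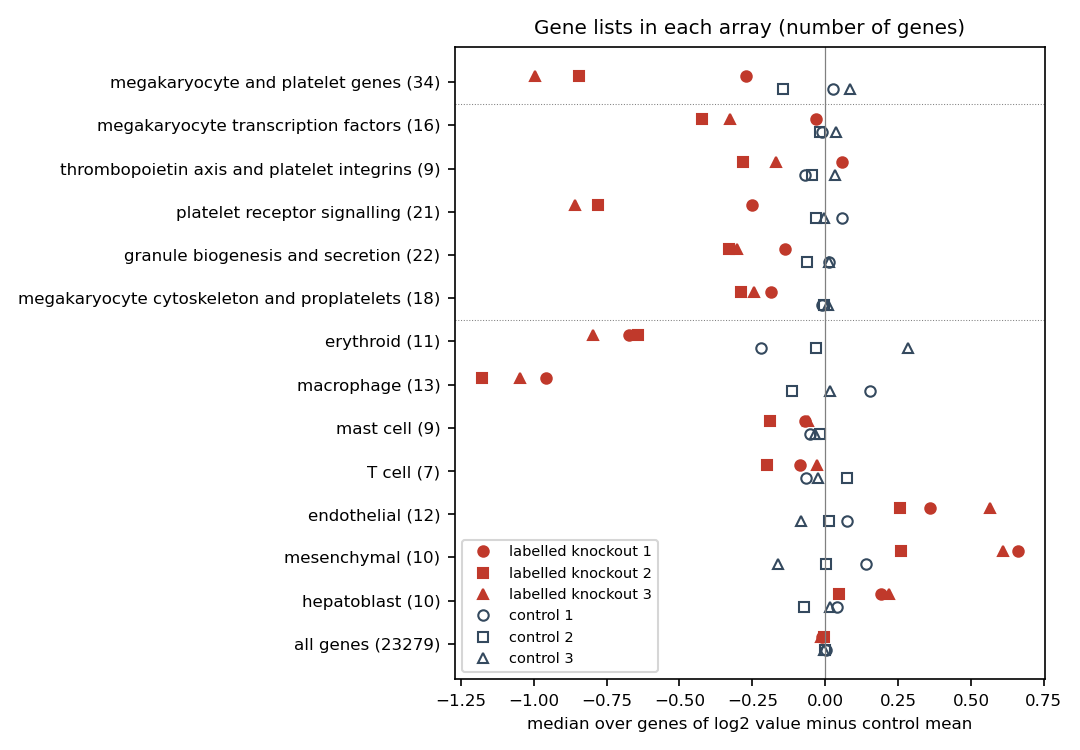
Shift of each gene list in each array, as the median over its genes of the log2 difference from the mean of controls, with labelled knockout arrays as filled symbols above and control arrays as open symbols below. For megakaryocyte and platelet genes and platelet receptor signalling genes, the filled circle of replicate 1 (-0.27 and -0.25) lies apart from replicates 2 and 3, whereas for macrophage and erythroid markers the 3 filled symbols lie together.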

How the data were processed

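Total RNA from 6 fetal livers or pools at embryonic day 11.5 was measured on 1-colour Affymetrix arrays. The deposited values are log2 expression values that the authors made with RMA, per the submitters' processing notes, with no version given. Sorted values are identical in all arrays (median 5.43, range 2.55 to 13.9), which quantile normalisation leaves and which hides any change in total RNA.

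Names were found for 23281 of 24479 features through the platform annotation and a RefSeq gene table (GRCm38.p6). For 2 names with a pair of features the brighter was kept, leaving 23279 genes. The table had 0 columns beyond those of the samples. The test was limma 3.58.1 in R 4.3.3 (lmFit, eBayes, no covariate, 4 residual degrees of freedom) as labelled knockout minus control, with Benjamini-Hochberg adjustment over all genes and a threshold of 0.05. Intervals are 95% intervals of that fit. SE is limma's moderated standard error of the difference, with the variance pooled over both groups and moderated over all genes. SD is over n = 3 arrays per group. With 3 arrays a group, an exact permutation test has a smallest two-sided p of 0.1 and was not used. The labels call the replicates biological and name no litters. Members, lists and the rule for named genes (all members, presets and the smallest p-values of each list) were chosen with earlier results of these data known. The fit was also run on simulated data, drawn independently for each gene and array. Those data hold no embryo sex and no shift shared by genes of an array, so they test neither. In RefSeq, F2rl2, P2ry12, Tbxas1, Gp1bb, Clec1b and Zyx overlap another coding gene, and the positions of the probes are not stated in the labels. Alternatives were another variance model, normalisation, filter, array weights, a replicate block, sex, thresholds and leaving out each array.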

Additional observations from a re-analysis of the deposited data

How the results depend on the processing

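The count of lower genes stayed at 11 of 34 with robust eBayes, repeated quantile normalisation, median centring, averaged features, array weights, X and Y genes left out and a fold change of at least 1.5, and was 13 without the dimmest 25% of genes. It was 18 with a variance trend, 17 of 31 without the dimmest 50%, 19 at an adjusted p of 0.1 and 0 with a sex term. Over all genes 644 of 23279 were lower as reported, 817 with a variance trend and 0 with a sex term. At an adjusted p of 0.1 no count over all genes was made. Without the dimmest 25% it was 715 of 17459, and without the dimmest 50% it was 950 of 11640. With a sex term or with the female arrays alone the median difference was -0.57. These settings give the same differences, since both rest on control replicate 2 as the only female control. Without single arrays the count of lower genes among the 34 ran from 0 to 26, and the cause of these changes was not tested. The count of higher genes was 0 in each setting run. The median difference ran from -0.91 to -0.57, within 0.38 of the value as reported. That bound is the larger group SD of the per-array medians, that of the livers labelled knockout. The spread of their replicate 1 from the others widens it, so it does not test leaving that replicate out. Of the 34 genes, 31 kept a negative difference in each setting. Clec1b turned to -0.19 with a sex term or the female arrays alone and ran from -0.10 to 0.15 without single arrays, F13a1 turned to 0.073 with a sex term or the female arrays alone, and Dnm3 ran from -0.091 to 0.25 without single arrays and was 0.53 with a sex term or the female arrays alone.

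With the replicate number as a block 4 of the 34 genes were lower (Treml1, P2rx1, P2ry12 and Tbxas1), compared with 281 of all 23279 genes. Higher calls in that fit were 0 among the 34 and 405 over all genes. Same-numbered arrays deviated from their group means with correlations over genes of -0.05, -0.01 and -0.08 for numbers 1, 2 and 3. The labels name no litters, and these correlations cannot tell whether same-numbered livers share a litter. Presence over background was not measured, which limits what can be said of the dim genes P2ry12, Selp and Dnm3.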
